A study of Mus musculus with 6 samples.

Results

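Immediate early genes, stress response genes and the feedback regulators that limit them were compared between peritoneal macrophages (PMs) of diseased and control mice. The set held 36 of the 32879 genes to which counts could be assigned. They were listed by name from textbook membership of these families, and were chosen with earlier results of these data known. Of the 36, 28 passed the low-count filter, which left 10505 genes to be tested. RNA-seq libraries had been made from sorted macrophages of 3 diseased-BWF1 mice and 3 control mice, with 1 library per mouse and no stimulation described for these samples. Diseased-BWF1 mice were female New Zealand black/New Zealand white hybrids, a model that develops lupus-like disease spontaneously, aged 31, 31 and 34 weeks in mice 1, 2 and 3. They had been chosen for high titers of antibody against double-stranded DNA and for severe proteinuria. Control mice were female New Zealand white/BALB/c hybrids of a non-lupus-susceptible genotype, aged 33, 33 and 30 weeks. Because a different parental strain entered each hybrid, strain and disease cannot be told apart in any comparison. Macrophages had been sorted as F4/80 and CD11b high cells, which makes both molecules part of the selection.

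Immediate early genes are transcribed within minutes of a signal from pre-existing factors, without new protein synthesis, and their mRNAs are short-lived. The products of the first wave, such as the FOS and JUN proteins that pair to form AP-1 and the EGR, NR4A and KLF factors, act on later genes. A parallel wave encodes brakes, among them the phosphatase DUSP1 that inactivates MAP kinases, the inhibitor IkB-alpha (Nfkbia) and the deubiquitinase A20 (Tnfaip3) that restrain NF-kB, and the protein ZFP36 that directs decay of cytokine mRNAs. In macrophages this program follows Toll-like receptor ligands, adhesion and growth factors, and it is also set off by cell isolation.

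Library depth was 3629901 to 5003360 counts, of which 89.1% to 93.0% were assigned to genes. The 36 genes took 0.429%, 0.356% and 0.366% of the gene counts in control mice 1 to 3 and 0.686%, 0.598% and 0.427% in diseased-BWF1 mice 1 to 3. The share in diseased-BWF1 mouse 3 lay just under that of control mouse 1, so the groups overlapped. Macrophage markers were abundant in every library, with a summed level of 39826 to 53860 CPM (counts scaled to library size) in controls and 33166 to 39052 CPM in diseased-BWF1 mice. Lyz2 made up most of that sum in every library, followed by Itgam, which encodes the CD11b used for sorting. B cell markers summed to 8.48 CPM at most and T and NK cell markers to 2.75 CPM at most. In bulk samples, fewer cells of a type and less RNA per cell cannot be told apart.

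With edgeR, none of the 28 tested genes passed the threshold of an adjusted p under 0.05 with a fold change of at least 1.5, and 9 of them had an unadjusted p under 0.05, all of them higher in diseased-BWF1 mice. Across all genes tested, edgeR placed 0.4% past the threshold as higher in the diseased group and 0.819% as lower, and 13.2% had an unadjusted p under 0.05. DESeq2 called 5 of the 28 genes higher, namely Fos, Junb, Nr4a1, Ier2 and Zfp36, and 0 lower, against 1.27% of all genes called higher and 2.28% called lower. limma-voom called 0 of them, of 91 genes in all. The fitted log2 fold change was above 0 for 26 of the 28, with a median of 0.58 against 0.005 over all genes tested, and the signs of Egr1 and Nr4a2, at -0.02 and -0.06, were the exceptions. The number above 0 was also 26 with the DESeq2, upper quartile and RLE scalings. A further measure was complete separation, in which the lowest of the diseased-BWF1 values exceeded the highest control value, which held for 8 of the 28 genes, Fos, Junb, Jund, Nr4a1, Klf4, Ier2, Ier5 and Nfkbiz, and for 9.81% of all genes. The reverse order held for 0 of the 28 and for 11.1% of all genes. For each of these 8 genes the exact two-sided permutation test gave p = 0.1, the smallest value that 3 mice against 3 allow. These counts describe the genes that passed the filter, and the 8 that did not are given separately. The genes were chosen with earlier results of these data known. Their shares beside those of all genes are therefore descriptive and not a test.

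**Figure D1:**
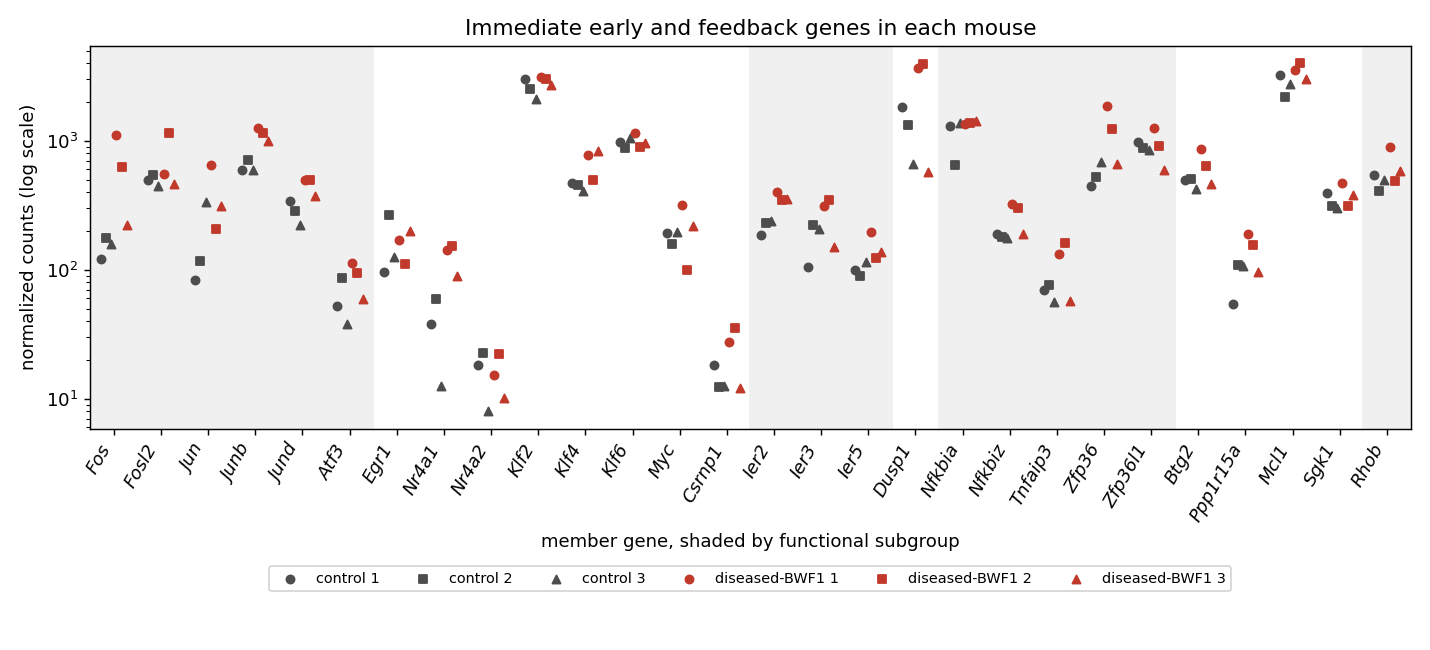
Normalized counts on a log scale of the 28 tested genes in each of the 6 mice, with control mice in grey and diseased-BWF1 mice in red, a marker shape for each mouse number and shading by functional subgroup. Fos, Junb, Nr4a1 and Ier2 show 3 red points above the grey ones, while for Dusp1 the third red point, at 570.3, lies below every control.

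Fos (chr12:85473890-85477274, GRCm38.p6), the founding FOS-family partner in AP-1, had 121, 177 and 159 normalized counts in control mice 1 to 3. In diseased-BWF1 mice 1 to 3 it had 1111, 622 and 221. Every diseased-BWF1 mouse exceeded every control, but mouse 3 only narrowly. The log2 fold change was 2.09 (SE 0.53), with an adjusted p of 0.14 in edgeR and 0.000901 in DESeq2. With each mouse left out in turn, DESeq2 called it in 5 of 6 fits and lost it without control mouse 3 (adjusted p = 0.173). Without diseased-BWF1 mouse 1 the fitted log2 fold change was 1.47.

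Junb (chr8:84976909-84978748), a JUN-family partner, had 596, 708 and 589 normalized counts in control mice and 1255, 1154 and 993 in diseased-BWF1 mice. The groups were well separated and neither was widely spread. The fitted change was 0.84 on the log2 scale (SE 0.15), and the adjusted p was 0.0523 in edgeR, just outside the threshold, and 4.1e-05 in DESeq2. DESeq2 called Junb in all 6 fits that left out a mouse, the only member for which this held. Jund, a JUN protein that many cells carry at rest, had 340.1, 285 and 222 normalized counts in controls and 496, 496 and 373 in the diseased group. The change was 0.68 on the log2 scale (SE 0.19), with an adjusted p of 0.183 in edgeR and 0.0696 in DESeq2. Its 3 diseased-BWF1 mice were all above the controls. Its counts were divided almost equally between its 2 records, with 50.02% on the larger, and were summed here.

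Jun, the main transactivating partner, had 82.8, 116 and 336 normalized counts in controls and 650.3, 207 and 312 in diseased-BWF1 mice, and the groups overlapped through control mouse 3. It had a log2 fold change of 1.13 (SE 0.60), with an adjusted p of 0.482 in edgeR, and DESeq2 called it without control mouse 3 (adjusted p = 0.00358). Fosl2, which encodes FRA-2, had 493, 543 and 446 normalized counts in controls against 555, 1137 and 458 in diseased-BWF1 mice, the smallest fitted change of the AP-1 genes at 0.53 (SE 0.33, adjusted p = 0.547 in edgeR). Diseased-BWF1 mouse 2 alone stood out for Fosl2, and without it the log2 fold change was 0.04. Atf3, a stress-induced repressor, ranged from 37.7 to 86.6 in controls and from 59.4 to 113 in diseased-BWF1 mice. The 6 tested AP-1 genes were all fitted above 0, with a median log2 fold change of 0.76.

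Fosb, a second FOS-family gene, did not pass the filter and had 0 counts in all 3 control mice. It had 55, 7 and 13 counts in diseased-BWF1 mice 1 to 3. Set against a floor of 3 counts over the whole control group, it was at least 25.2-fold higher in diseased-BWF1 mice, a bound that covers counting error only. Most of these counts came from diseased-BWF1 mouse 1. Without that mouse the bound was 10.3-fold, on 20 counts, and without control mouse 1, which lowers the depth behind the floor, it was 15.2-fold. When no low-count filter was applied, edgeR called Fosb higher (adjusted p = 0.0206). Maff, a small MAF protein without a transactivation domain, had 5, 2 and 0 counts in controls and 4, 1 and 0 in diseased-BWF1 mice, too few for a comparison at this depth.

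The promoters of 4 genes are shown to place the results beside the sequence elements through which these families are usually induced. Sequences are RefSeq windows of GRCm38.p6 running from 250 bases before to 50 bases after the annotated start, in the sense direction of the gene, and capitals mark matches to the searched motifs. Fos lies at chr12:85473640-85473939 on the plus strand, with an NF-kB box from -214 to -205 and a TATA box from -33 to -28 in capitals. Zfp36 lies at chr7:28379179-28379478 on the minus strand, with a CArG box, the core of the serum response element, from -58 to -49. Dusp1 lies at chr17:26508423-26508722 on the minus strand, with a cyclic AMP response element (CRE) from -143 to -136. Nfkbia lies at chr12:55492598-55492897 on the minus strand, with an NF-kB box from -29 to -20 and a TATA match, in the reverse direction, from 20 to 25 after the start.
Fos: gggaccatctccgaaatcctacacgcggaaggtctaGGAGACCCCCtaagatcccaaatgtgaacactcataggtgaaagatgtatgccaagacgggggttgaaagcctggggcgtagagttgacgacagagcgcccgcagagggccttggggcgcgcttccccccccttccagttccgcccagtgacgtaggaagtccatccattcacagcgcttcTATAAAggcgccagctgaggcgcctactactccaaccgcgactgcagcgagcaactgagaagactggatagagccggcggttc
Zfp36: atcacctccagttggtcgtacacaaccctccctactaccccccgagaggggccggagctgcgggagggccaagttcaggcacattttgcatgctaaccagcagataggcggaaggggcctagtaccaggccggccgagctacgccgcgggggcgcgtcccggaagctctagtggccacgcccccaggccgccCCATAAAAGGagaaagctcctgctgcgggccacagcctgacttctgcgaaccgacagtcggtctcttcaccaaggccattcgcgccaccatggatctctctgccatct
Dusp1: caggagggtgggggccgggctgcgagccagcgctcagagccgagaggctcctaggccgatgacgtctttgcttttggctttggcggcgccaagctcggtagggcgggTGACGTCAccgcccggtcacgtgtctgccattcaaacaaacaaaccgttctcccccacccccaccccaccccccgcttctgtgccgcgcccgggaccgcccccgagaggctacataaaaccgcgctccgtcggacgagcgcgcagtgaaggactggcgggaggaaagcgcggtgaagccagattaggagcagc
Nfkbia: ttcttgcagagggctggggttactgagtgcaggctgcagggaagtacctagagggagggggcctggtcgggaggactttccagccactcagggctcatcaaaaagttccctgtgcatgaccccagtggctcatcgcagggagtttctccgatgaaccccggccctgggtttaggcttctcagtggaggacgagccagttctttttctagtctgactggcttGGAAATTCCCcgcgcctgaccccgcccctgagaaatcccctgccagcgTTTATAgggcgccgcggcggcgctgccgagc

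A window was given for 31 of the 36 genes, all but Egr1, Egr3, Ier2, Myc and Nfkbiz, and each motif was searched on both strands. The CRE, TGACGTCA, was found in 4 of the 31 genes (12.9%), Btg2, Dusp1, Maff and Ppp1r15a, and in 2.03% of all 27025 genes with a window. The CArG box was found in 3 (9.68% against 1.81%), Dusp5, Egr2 and Zfp36. The NF-kB box was found in 9 (29.0% against 9.55%), which were Egr2, Fos, Fosb, Fosl2, Ier3, Maff, Nfkbia, Nr4a1 and Tnfaip3. The TATA box, TATAAA, was found in 10 (32.3% against 15.7%) and the EGR site, GCGTGGGCG, in Maff alone (3.23% against 0.707%). The AP-1 site, TGACTCA, was found in 2, Csrnp1 and Tnfaip3 (6.45% against 5.95%). Of all windows of this length, 1.79% held the CRE, 1.63% the CArG box, 8.46% the NF-kB box, 13.6% the TATA box, 0.612% the EGR site and 5.2% the AP-1 site. Some genes have more than 1 window, 46 windows for the 31 genes and 32851 for all, and a gene with more windows has more places for a match. Of the 46 windows, 4 held the CRE, 6 the CArG box, 9 the NF-kB box, 11 the TATA box, 1 the EGR site and 2 the AP-1 site. Windows of the same gene can overlap and share a site, as for the CArG box of Egr2. A match is a stretch of letters and not a binding site, and enhancers further away were not searched.

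Among the other transcription factors, Nr4a1 (NUR77, an orphan nuclear receptor) stood apart from the rest. It had 38.1, 58.7 and 12.6 normalized counts in controls and 142, 151 and 88.7 in diseased-BWF1 mice, with no overlap. The log2 fold change was 1.79 (SE 0.46), with an adjusted p of 0.149 in edgeR and 0.012 in DESeq2. DESeq2 kept the call in 3 of 6 fits with a mouse left out and lost it without control mouse 1 (adjusted p = 0.0906), diseased-BWF1 mouse 1 (0.156) or diseased-BWF1 mouse 2 (0.179). This separation also depended on which transcript records were counted. On its only curated record Nr4a1 had 46, 54 and 8 counts in controls and 41, 112 and 73 in diseased-BWF1 mice, so that diseased-BWF1 mouse 1 fell within the control range, and DESeq2 on curated records alone did not call it.

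Klf4, a factor tied to macrophage polarization, had 468, 454 and 407 normalized counts in controls and 768, 497 and 835 in diseased-BWF1 mice. The groups did not overlap, and here mouse 3 was the highest of the 6. On the log2 scale it differed by 0.65 (SE 0.20), with an adjusted p of 0.224 in edgeR and 0.0942 in DESeq2, which called it without diseased-BWF1 mouse 2 (adjusted p = 0.000219). Nr4a2 (NURR1) had 18.2, 22.7 and 8.0 normalized counts in controls and 15.2, 22.3 and 10.1 in diseased-BWF1 mice, the lowest fitted change of the set at -0.06 (SE 0.47). Egr1, a zinc finger factor induced by growth factor and adhesion signals, had 95.2, 265 and 126 in controls and 170, 109.7 and 199.5 in diseased-BWF1 mice. The groups overlapped, with control mouse 2 above every diseased-BWF1 mouse and diseased-BWF1 mouse 2 below control mouse 3. The log2 fold change was -0.02 (SE 0.40).

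Of the remaining factors, Klf2, a KLF protein associated with quiescence, was the most abundant gene of the set per length, at 362 CPM per kb of transcript in controls, followed by Mcl1 (209), Nfkbia (184), Dusp1 (168) and Junb (92.0) on the same scale. It had 2120 to 2982 normalized counts in controls and 2726 to 3111 in diseased-BWF1 mice, with a log2 fold change of 0.22. Klf6 was at 876 to 1047 in controls and 897 to 1156 in diseased-BWF1 mice, and Myc, the growth regulator, at 159 to 194 and 99.5 to 319. Their log2 fold changes were 0.05 and 0.22. Csrnp1, a nuclear protein induced by AXIN1, was low, at 12.4 to 18.2 in controls and 12.1 to 35.5 in diseased-BWF1 mice, with a log2 fold change of 0.78 (SE 0.44). Egr2 had 2, 9 and 3 counts in controls and 12, 6 and 9 in diseased-BWF1 mice, and Egr3 had 1, 3 and 1 against 6, 1 and 4. Neither passed the filter. The median over the 8 tested factors of this subgroup was 0.22.

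The IER genes, named only as immediate early response genes, gave the most even result. Ier2 (chr8:84661331-84662852) had 187, 231 and 240.0 normalized counts in controls and 398, 344 and 352 in diseased-BWF1 mice. The spread within each group was small beside the gap between them. Its log2 fold change was 0.73 (SE 0.14), with an adjusted p of 0.0699 in edgeR and 0.00369 in DESeq2. The DESeq2 call was lost without control mouse 1 (adjusted p = 0.0744) or diseased-BWF1 mouse 1 (0.0996). Ier5 had 99.3, 88.6 and 115 in controls and 194, 123 and 136 in diseased-BWF1 mice, again without overlap, with a log2 fold change of 0.57 (SE 0.21) and an adjusted p of 0.31 in edgeR. Ier3 overlapped between groups, at 104 to 223 in controls and 150.1 to 348 in diseased-BWF1 mice, with a log2 fold change of 0.60.

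Dusp1 (chr17:26505591-26508472), the phosphatase that switches off p38 and JNK, had the widest spread of the set. It had 1821, 1324 and 658 normalized counts in control mice and 3649, 3937 and 570.3 in diseased-BWF1 mice. Diseased-BWF1 mice 1 and 2 were above every control and mouse 3 was below every control, so the groups overlapped. The log2 fold change was 1.10 (SE 0.67), with an adjusted p of 0.546 in edgeR and 0.789 in DESeq2. Without diseased-BWF1 mouse 3, DESeq2 called it higher (adjusted p = 0.00336), and the same fit also called Jund, Nfkbiz and Tnfaip3 higher. The other 2 phosphatases were near the detection limit. Dusp2 had 0 counts in each control mouse and 5, 4 and 0 in diseased-BWF1 mice, at least 3.02-fold higher against the same floor. With a mouse left out that bound ran from 1.83 (without control mouse 1) to 4.49 (without diseased-BWF1 mouse 3), on 9 counts or fewer. Dusp5 had 2, 4 and 2 against 5, 6 and 2.

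Zfp36 (chr7:28376784-28379228), which encodes tristetraprolin, had 446, 522 and 679 normalized counts in controls and 1859, 1233 and 664 in diseased-BWF1 mice. Mice 1 and 2 were far above the controls, while mouse 3 lay below control mouse 3. The log2 fold change was 1.18 (SE 0.36), with an adjusted p of 0.219 in edgeR and 0.0256 in DESeq2. DESeq2 kept the call in 2 of 6 fits, without control mouse 3 or without diseased-BWF1 mouse 3. It was lost without control mouse 1 (adjusted p = 0.205), control mouse 2 (0.171), diseased-BWF1 mouse 1 (0.322) or diseased-BWF1 mouse 2 (0.13). Its relative Zfp36l1 had 981, 873 and 854 in controls and 1257, 915 and 597 in the diseased group, with a fitted log2 difference of 0.03 (SE 0.26). Diseased-BWF1 mouse 1 was the highest of the 6 for this gene and mouse 3 the lowest.

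Nfkbiz, an atypical nuclear IkB protein, had 189.5, 180.3 and 176 normalized counts in controls and 324, 302 and 190.4 in diseased-BWF1 mice. The groups did not overlap, but mouse 3 exceeded control mouse 1 by less than 1 count. The log2 fold change was 0.57 (SE 0.21, adjusted p = 0.289 in edgeR). Tnfaip3 was at 56.0 to 76.2 in controls and had 133, 160.5 and 57.4 in diseased-BWF1 mice, with a log2 fold change of 0.79 (SE 0.36). Nfkbia had 1288, 645 and 1362 in controls against 1338, 1374 and 1428 in diseased-BWF1 mice, nearly the same value in all diseased-BWF1 mice and in 2 of the 3 controls. The log2 fold change was 0.32 (SE 0.27, adjusted p = 0.675 in edgeR).

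**Figure D2:**
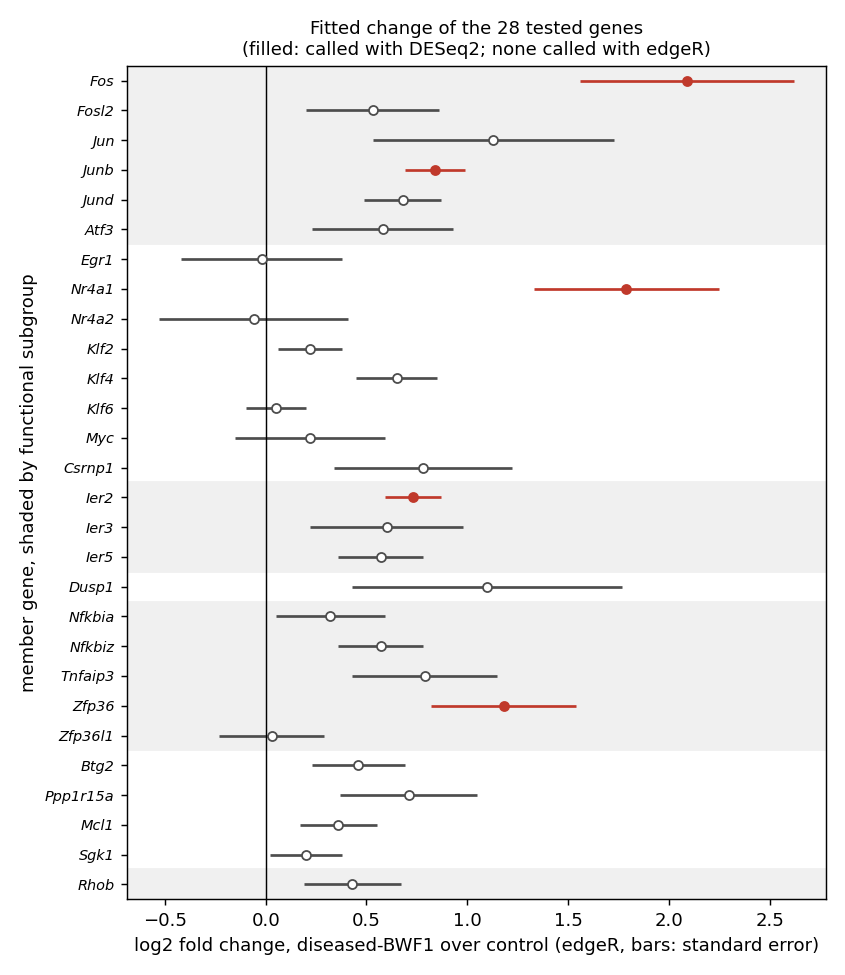
Fitted log2 fold change of diseased-BWF1 over control mice in edgeR for the 28 tested genes, with bars of 1 standard error, shaded by functional subgroup and filled red where DESeq2 called the gene. All points but Egr1 and Nr4a2 lie above 0, and the bars of Junb and Ier2, with standard errors of 0.15 and 0.14, are among the narrowest.

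The 4 tested growth arrest, stress and survival genes had a median log2 fold change of 0.41 and no call with either tool. Ppp1r15a (GADD34, which brings a phosphatase to eIF2-alpha) had 54.6, 109.2 and 106 normalized counts in controls and 190.5, 154 and 95.7 in diseased-BWF1 mice, the largest fitted change of this subgroup at 0.71 (SE 0.34, adjusted p = 0.441 in edgeR). Sgk1, a kinase induced by serum and glucocorticoids, had 391, 313 and 299 against 469, 313 and 379, the smallest at 0.20 (SE 0.18). Both genes overlapped between groups when their records were summed. The summed Sgk1 value combined records that went in opposite directions. Its most counted record had 313, 187 and 185 raw counts in controls and 198, 89 and 180 in diseased-BWF1 mice. Another had 147, 110 and 50 raw counts in controls and 273, 175 and 148 in diseased-BWF1 mice. Single records of Sgk1 were not tested. Btg2, an antiproliferative gene, was at 423 to 504 in controls and 457 to 867 in diseased-BWF1 mice, with a log2 fold change of 0.46. Mcl1, a survival protein with a short half-life, had 2184 to 3206 normalized counts in controls and 2982 to 3978 in the diseased group, with a log2 fold change of 0.36. Gadd45b did not pass the filter, with 3, 0 and 4 counts in controls and 5, 3 and 5 in diseased-BWF1 mice.

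Rhob, an inducible small GTPase of the actin cytoskeleton, had 539, 410.1 and 495 normalized counts in controls and 885, 485 and 582 in diseased-BWF1 mice. Only mice 1 and 3 exceeded the controls, and the log2 fold change was 0.43 (SE 0.24, adjusted p = 0.503 in edgeR). The matricellular gene Ccn1 (Cyr61) had 0 counts in all 6 mice, below the 3 counts per library that a count of 0 allows, which correspond to 0.652 to 0.888 CPM.

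The level of the set differed from mouse to mouse within the diseased-BWF1 group. Averaged over the 28 tested genes, log2 CPM lay 0.92, 0.64 and 0.20 above the control mean in diseased-BWF1 mice 1 to 3, while control mice 1 to 3 lay at -0.01, 0.08 and -0.07. All 3 diseased-BWF1 mice were thus above the controls, in the order mouse 1, mouse 2 and mouse 3. Mouse 1 was the highest of all 6 mice for 17 of the 28 genes, against 14.8% of all genes tested. Mouse 1 was above every control for 25 of the 28 genes, mouse 2 for 19 and mouse 3 for 11, against 26.7%, 27.5% and 27.3% of all genes. Without diseased-BWF1 mouse 1 the median log2 fold change of the set was 0.45 and 23 genes were fitted above 0, and without mouse 3 the median was 0.76. Mouse 3 was also the oldest at 34 weeks. With age as a covariate, the median was 0.56. Within each group only mouse 3 differed in age from the others. Age therefore cannot be told apart from other traits of these mice, and its part in the level of mouse 3 was not tested.

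**Figure D3:**
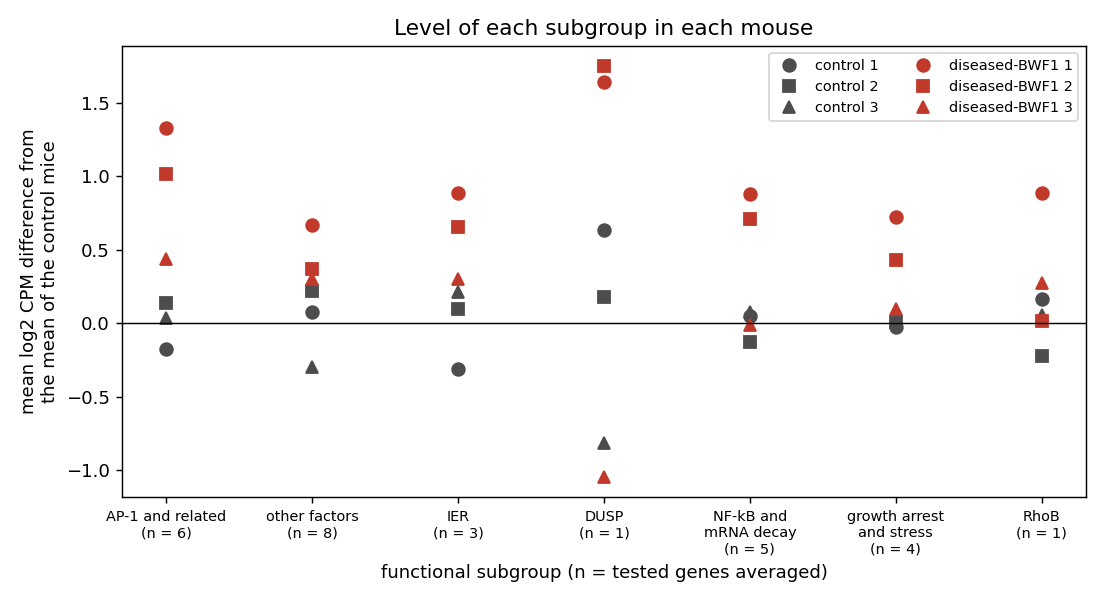
Mean log2 CPM difference from the control mean for each of the 7 functional subgroups in each mouse, with the number of tested genes averaged. For the AP-1 genes the diseased-BWF1 mice sit at 1.33, 1.02 and 0.43, all above the controls, whereas for the NF-kB inhibitors and mRNA decay factors mouse 3 sits at -0.01 among the controls.

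By subgroup, the AP-1 genes lay 1.33, 1.02 and 0.43 above the control mean in diseased-BWF1 mice 1 to 3, and the IER genes 0.89, 0.65 and 0.30. The other inducible factors lay at 0.67, 0.37 and 0.30 and the growth arrest, stress and survival genes at 0.72, 0.43 and 0.10. In these 4 of the 7 subgroups all 3 diseased-BWF1 mice exceeded every control. The NF-kB inhibitors and mRNA decay factors lay at 0.88, 0.71 and -0.01, with mouse 3 inside the control range. For the single tested phosphatase, Dusp1, the differences were 1.64, 1.75 and -1.04.

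The spread between mice was wider for the set in the diseased-BWF1 group. The SD of log2 CPM among diseased-BWF1 mice had a median of 0.46 over the 28 genes, against 0.21 for all genes tested and 0.20 for the 9522 genes in the same range of expression. Among control mice it was 0.26, against 0.24 and 0.23. The SD was larger in diseased-BWF1 than in control mice for 17 of the 28 genes, and for 44.6% of all genes. It was largest for Dusp1 (1.58) and Fos (1.18) in diseased-BWF1 mice and for Nr4a1 and Jun (both 1.05) in controls. Nfkbia had the opposite pattern, with an SD of 0.60 in controls and 0.04 in diseased-BWF1 mice.

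**Figure D4:**
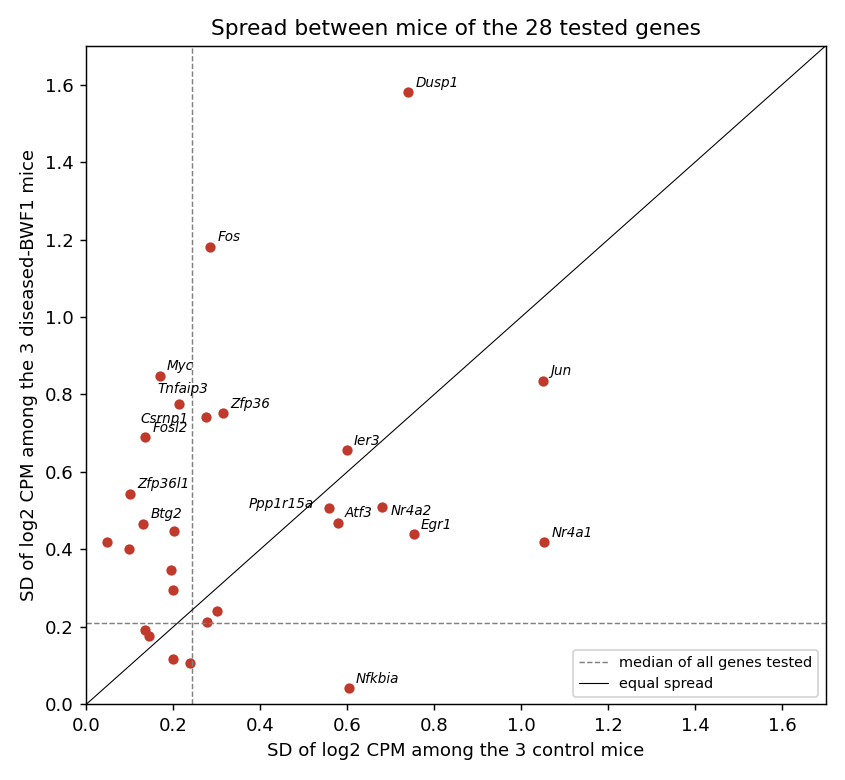
SD of log2 CPM among the 3 diseased-BWF1 mice against that among the 3 control mice for the 28 tested genes, with dashed lines at the medians of all genes tested, 0.24 and 0.21, and a solid line of equal spread. Dusp1 (1.58) and Fos (1.18) stand highest, and Nfkbia lies near the bottom at 0.04.

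Heat shock genes, which also respond to stress and handling of cells, varied strongly between mice and were read beside the set. On the log2 CPM scale, all 13 tested heat shock genes were higher in diseased-BWF1 mouse 1 than in mice 2 and 3, and all 13 were higher in control mouse 3 than in the other controls. Their mean lay 0.79, 0.01 and 0.09 above the control mean in diseased-BWF1 mice 1 to 3 and at -0.20, -0.45 and 0.65 in control mice 1 to 3. The near-identical Hspa1a and Hspa1b, whose reads may be exchanged between them, had 768 and 716 normalized counts in diseased-BWF1 mouse 1, the highest of the 6 mice. Diseased-BWF1 mouse 1 was thus high for heat shock genes and for the set together. Control mouse 3 was high for heat shock genes while its mean for the set lay at -0.07. That mean combined both directions: this mouse was the highest control for 7 of the 28 genes, Jun among them, and the lowest of all 6 mice for 12. Over all genes tested it was the highest of the 6 mice for 25.6% and the lowest for 24.7%, the largest shares of any mouse. Diseased-BWF1 mouse 2 was near the control mean for heat shock genes while the set lay at 0.64. The part of sample handling in the results was not tested. The median log2 fold change of the heat shock genes was 0.02, with 0 called in edgeR and 0 in DESeq2.

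Other genes of the same pathways were taken from named lists. Over all genes tested, 13.2% had an unadjusted p under 0.05. Of 19 further inducible factors of the same families, 15 were tested, edgeR and DESeq2 called 0, 2 had an unadjusted p under 0.05 and the median log2 fold change was 0.18. The largest changes were Jdp2 at 1.05 (SE 0.71) and Klf3 at 0.91 (SE 0.63). Of 39 further feedback regulators, 31 were tested, both tools called 0, 3 had an unadjusted p under 0.05 and the median was 0.11. Ddit4, an inhibitor of mTOR signalling, had the largest change at 2.43 (SE 0.95, adjusted p = 0.334 in edgeR), with 5.69 normalized counts in diseased-BWF1 mouse 1 and 116 and 44.3 in mice 2 and 3, an order unlike that of Fos. Rgs1 followed at 0.93 (SE 0.61).

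Upstream of the set, 29 of 30 MAP kinase, serum response, CREB and NF-kB genes were tested, with a median of 0.08. Of these, 5 had an unadjusted p under 0.05 (17.2%, against 13.2% of all genes). edgeR called 0 and DESeq2 called Rps6ka1 (RSK1, a kinase downstream of ERK) higher, at 278, 230 and 192 normalized counts in controls and 399, 395 and 372 in the diseased group. On the log2 scale it differed by 0.73 (SE 0.15), with an adjusted p of 0.0827 in edgeR and 0.00837 in DESeq2. Every diseased-BWF1 mouse exceeded every control for 9 of the 29, against 9.81% of all genes, and lay below every control for 1, against 11.1%. Elk4 was among the 9, with a log2 fold change of 0.93 (SE 0.29). Of 15 early secreted products, 5 passed the filter, both tools called 0, and 1 had an unadjusted p under 0.05. Cxcl2 had the highest fitted log2 fold change at 1.30 (SE 0.89), carried by 313 normalized counts in diseased-BWF1 mouse 1 beside 62.0 and 21.2 in mice 2 and 3. Il1a went the other way at -1.09 (SE 0.30, adjusted p = 0.17 in edgeR).

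Markers of other cells were also read in each group. Ly6c2, a defining marker of classical monocytes, had 1 count in control mouse 1 and 0 in the other 5 libraries. Ccr2, also a monocyte marker, was low but fitted upward, at 1.43 on the log2 scale (SE 0.69, adjusted p = 0.441 in edgeR). Its raw counts were 13, 8 and 2 for controls 1 to 3, against 24, 6 and 31 for the diseased group. The groups overlapped through diseased-BWF1 mouse 2, and neither edgeR nor DESeq2 called Ccr2. The 7 monocyte and dendritic cell markers reported here summed to 12.2 to 18.5 CPM in controls and 17.9 to 21.9 CPM in diseased-BWF1 mice, and the ranges overlapped. A further gene of that list is left out of the sum, so the sum does not describe the whole list. Neutrophil markers summed to 325 to 337 CPM in controls and 205 to 325 CPM in diseased-BWF1 mice, nearly all of it Csf3r, with Ly6g, Mpo and Retnlg at 0. Csf3r and S100a8, the 2 that were tested, had log2 fold changes of -0.26 (SE 0.19) and 0.39 (SE 0.44). Mast cell and eosinophil markers did not exceed 2.00 CPM, nor mesothelial and stromal markers 1.63 CPM. Among the macrophage markers, DESeq2 called C1qa lower, at a log2 fold change of -0.88 (SE 0.19) and an adjusted p of 0.000183, and edgeR called 0 of the 10. Of the 10, 5 were fitted above 0 and 5 below. The 2 largest changes were upward and not called, Fcgr1 at 1.14 (SE 0.70) and Cd14 at 0.88 (SE 0.30). Cd14 had 1129, 1604 and 1856 normalized counts in controls and 2187, 4049 and 2236 in diseased-BWF1 mice, without overlap. It was the only 1 of the 10 with every diseased-BWF1 mouse above every control, against 9.81% of all genes. The reverse order held for 4 of the 10, Adgre1, Lyz2, Icam2 and C1qa, against 11.1% of all genes. Adgre1 encodes the F4/80 used for sorting and had a log2 fold change of -0.17 (SE 0.13). Lyz2 was at -0.46 (SE 0.22) and Icam2 at -0.55 (SE 0.16). The part of these differences in the levels of the set was not tested.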

How the data were processed

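Stranded mRNA libraries from sorted PMs of 6 mice were sequenced by the authors, who deposited whole-number counts per RefSeq transcript record, 1 file per mouse. The submitters' processing notes name Salmon 0.8.0, DESeq2 and GRCm38.p6. The annotation release, how estimated values became whole numbers, and whether counting used strand are not given in the sources used here, so reads of a gene and an antisense partner cannot be told apart.

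Of 107193 records, 45754 matched a RefSeq gene table of GRCm38.p6 with the same version and 40712 with another version. Matched records were summed per gene, and 20727 unmatched records (6.98% to 10.9% of counts) stayed out of library sizes and tests. All 36 genes were matched. Of the 212 genes in all lists, 210 were matched, and Ighm and Trac were not and were not analysed here. The main test was the edgeR 4.0.16 quasi-likelihood test (filterByExpr, TMM, R 4.3.3) on the group alone, with Benjamini-Hochberg adjustment over 10505 genes. The call threshold was 0.05 for the adjusted p, together with a 1.5-fold change. DESeq2 1.42.0 and limma 3.58.1 (voom) were alternatives, beside other scalings, filters, covariates, curated records alone and each mouse left out. DESeq2 with a mouse left out, with the replicate block and on curated records was added after seeing the data. Normalized counts are counts divided by DESeq2 size factors (0.875 to 1.21). CPM used TMM library sizes, with a prior count of 2 on the log2 scale. Exact permutation tests used normalized counts. The fitting code was tested on simulated data.

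Values were given per mouse for genes called by edgeR or DESeq2, genes whose groups did not overlap, the largest and smallest fitted change of each subgroup and genes below the filter. Listed genes outside the set were counted, and named where called or among the 2 largest changes of a list. Other genes were named after their values were seen. The members and lists were chosen with earlier results of these data known. No pair of libraries agreed within sampling noise. Depth limits values below about 10 counts, and intervals and floors cover counting error only. A gene of the monocyte and dendritic cell markers, and the summed level of that whole list, are not reported here, and the sum given covers the other 7 genes.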

Additional observations from a re-analysis of the deposited data

How the results depend on the processing

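Of 447 alternative fitted values for the 28 tested genes, 422 kept their direction and their side of the threshold. A further 16 changed sign and 9 passed the threshold that the main value missed. As the main fit called 0 of the 28, keeping the side of the threshold meant only that a gene stayed uncalled. Several settings were the same fit with another scaling, so these counts are not a test of robustness. Genes called numbered 128 in edgeR, 372 with DESeq2, 84 with at least 10 counts in every library, 16 on curated records alone, 259 without a low-count filter and 21 to 51 with a mouse left out. Genes of the set called numbered 0 in edgeR, 5 with DESeq2, 4 without a low-count filter (Fos, Fosb, Junb and Nr4a1) and 0 to 1 with a mouse left out (Fos, without diseased-BWF1 mouse 3). With DESeq2, the set's 5 calls became 3 on curated records alone (Fos, Junb and Ier2) and 2 to 9 with a mouse left out, the extremes being without diseased-BWF1 mouse 1 (Fos and Junb) and without diseased-BWF1 mouse 3. The cause of these shifts was not tested. Mice of the same number were not paired by the labels. Their deviations correlated at 0.118, 0.00556 and 0.157, and those of mice of unlike number at -0.144 to 0.0573. With the replicate block, edgeR called 38 genes and 0 of the set, and DESeq2 called 3 of the set (Fos, Junb and Nr4a1).

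Signs changed for 5 genes with small fitted values. Egr1 was 0.082 with limma-voom, 0.076 with the replicate block and -0.31 to 0.53 with a mouse left out. Nr4a2 was 0.118 on curated records and -0.37 to 0.24 with a mouse left out. Klf6 spanned -0.066 to 0.13 and Myc -0.20 to 0.56 with a mouse left out. Zfp36l1 was -0.026 with age as a covariate, -0.038 with limma-voom, -0.034 with the replicate block and -0.27 to 0.26 with a mouse left out. Depth limits what can be read from the 8 genes below the filter.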
